A study of Mus musculus with 20 samples.

Results

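The response of mouse embryonic stem (ES) cells to 2 days of Zscan4-ERT2 induction was measured by comparing the 2 arrays of cells kept in tamoxifen through day 2 with the 2 arrays of untreated cells of day 2. These are 4 of the 20 arrays of the series, chosen by their titles (Tmx++ and Tmx-- on Day2). All 42006 probes of the array that are not controls were considered, and spots of the same probe were averaged. Both groups came from ES_ZERT #18, a clone of V6.5 ES cells, a line derived from an F1 hybrid of C57BL/6 and 129/Sv mice. The clone carries Zscan4-ERT2 under the CAG promoter, which is active in nearly every cell type, and was obtained by co-transfection with the neomycin-resistance plasmid PL452. Cells of both groups were grown as a monolayer on gelatin in ES medium, with 200 nM tamoxifen added on day 1 and day 2 in one group and none in the other. The untreated cells carry the transgene too, and a line without the transgene given tamoxifen is not among the groups compared, so an effect of tamoxifen through Zscan4-ERT2 and one apart from it cannot be told apart. All the values come from a single clone.

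Zscan4 is a family of nuclear proteins with a SCAN domain and zinc fingers. It marks the early embryo at the time its own genome is switched on. In ES cell cultures it is expressed in short bursts in a small share of the cells, together with other genes of that stage, and it is known for its part in telomere maintenance and genome stability. ERT2 is a mutated hormone-binding domain of the oestrogen receptor, which keeps a fused protein out of action until it binds tamoxifen or its active metabolite.

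Each array held the cells' RNA, labelled with Cy3 and called the sample channel here, and a common reference RNA labelled with Cy5. The reference was a pool from 11 mouse cell lines mixed with RNA of 129ES cells, and it was the same for every array. Levels are given as log2 of sample over reference, so that 0 stands for equal signal in both channels after normalization. The arrays lay on 5 slides of 4, and the groups compared lay on different slides: the untreated cells of day 2 shared slide 2 with the tamoxifen cells of day 1, and the tamoxifen cells of day 2 shared slide 3 with cells that had tamoxifen on day 1 alone (called withdrawn). Slide and treatment cannot be told apart in this comparison, so the reference channel, which held the same RNA on both slides, is given beside it. The scanner software's flag for sample signal well above background was set for 26656 to 27863 probes on each of the 4 arrays. Replicate arrays correlated at 0.992 (untreated) and 0.995 (tamoxifen) across the tested probes, and arrays of different groups at 0.960 to 0.961. With 2 arrays a group their number limits the precision. Whether they came from separate cultures is not stated, so the p-values measure the spread between arrays, which may be technical.

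The files give no gene names, and each probe is therefore named by its identifier. For the same reason the labelled cell type could not be checked against marker genes, and the level of Zscan4 itself is not given here. The probe sequences that carry the largest changes follow, 5′ to 3′, as deposited. The first 4 belong to probes that rose most. Z00024130-1 is shown with Z00045886-1 because both rose and share a run of 30 bases, which is in capitals.
Z00015795-1: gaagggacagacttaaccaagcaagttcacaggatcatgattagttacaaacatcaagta
Z00033292-1: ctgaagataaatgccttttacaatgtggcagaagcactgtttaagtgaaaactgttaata
Z00045886-1: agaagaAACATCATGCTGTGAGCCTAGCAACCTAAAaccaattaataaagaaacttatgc
Z00024130-1: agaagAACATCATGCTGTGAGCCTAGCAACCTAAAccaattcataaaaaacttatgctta
The next 5 belong to probes that fell most. Z00074574-1 and Z00002490-1 share 45 bases, again in capitals, at different positions in each probe. Whether they detect the same transcript was not tested.
Z00010943-1: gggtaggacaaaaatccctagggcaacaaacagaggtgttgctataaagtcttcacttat
Z00046636-1: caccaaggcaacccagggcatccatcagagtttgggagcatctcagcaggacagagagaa
Z00027744-1: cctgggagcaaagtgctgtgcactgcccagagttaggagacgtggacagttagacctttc
Z00074574-1: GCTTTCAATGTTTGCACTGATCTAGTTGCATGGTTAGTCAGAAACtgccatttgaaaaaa
Z00002490-1: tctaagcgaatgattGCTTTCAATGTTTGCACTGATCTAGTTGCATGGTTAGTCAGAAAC
The last 4 are shown because their signal crossed the background flag between the groups (the first pair upward with tamoxifen, the second pair downward). Z00068415-1 is made of 2 copies of 1 stretch of 30 bases.
Z00030262-1: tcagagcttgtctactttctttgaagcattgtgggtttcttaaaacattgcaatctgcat
Z00035560-1: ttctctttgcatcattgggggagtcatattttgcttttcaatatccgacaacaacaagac
Z00020928-1: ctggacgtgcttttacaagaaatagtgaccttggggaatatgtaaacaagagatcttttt
Z00068415-1: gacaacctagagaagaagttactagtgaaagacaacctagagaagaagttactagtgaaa

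After 2 days of tamoxifen many probes had changed in both directions, most of them by little. Of 29414 probes tested, 7340 differed between the groups (25%, limma, Benjamini-Hochberg adjusted p under 0.05). Among them 4073 were higher with tamoxifen (13.8% of the probes tested) and 3267 lower (11.1%), so that 55.5% of the changes were rises. The median called rise was 1.23-fold (log2 0.30) and the median called fall was 1.27-fold (log2 -0.34). The median over all tested probes was 0.02, and the central 95% of them lay between -0.55 and 0.53. The median standard error of a difference was 0.07.

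Large changes were few and leaned toward falls. Rises of at least 1.25-fold numbered 1848 and falls 1777, which is 45.4% of the called rises and 54.4% of the called falls. At 1.5-fold the counts were 562 and 621, or 13.8% and 19.0%. At 2-fold they were 133 rises (0.452% of the tested probes) and 180 falls (0.612%), and at 4-fold 7 and 19. Thus rises outnumbered falls over all called probes, and falls outnumbered rises at 1.5-fold and beyond. The number at 2-fold depends on the processing: with the scanner's processed signals it was 474 rises and 508 falls, and with the deposited series matrix, which covers 18098 of the tested probes, 349 and 374. These settings differ from the one used here in background treatment and normalization together, and their separate parts were not tested. Falls outnumbered rises at 2-fold under all 3 settings.

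Of the 7340 called probes, 7335 had groups that did not overlap, against 62.6% of all tested probes. The number of called rises was 2699 without the first tamoxifen array. It was 1983, with 1713 falls, when local backgrounds were used as given, a setting that changes an untreated day 1 array and reaches this comparison through the spread shared by all 20 arrays; with the 4 arrays alone 3649 rises and 3029 falls were called.

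The size of the response by brightness is drawn in the plot of log2 difference against signal. The tested probes were split into 5 classes of equal size by the mean sample signal of the 4 arrays. In the dimmest class, with log2 signal between 5.92 and 6.81, 9.93% of probes were called (exact 95% interval 9.18 to 10.7). In the second class 22.0% were called, and in the third, up to a log2 signal of 9.61, 34.0% (32.8 to 35.3). The fourth class gave 33.7%, and the brightest, above a log2 signal of 11.7, gave 25.1% (24.0 to 26.2). The intervals cover counting error only, since probes are not independent. Calls were thus most frequent at intermediate signal and least frequent near background.

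The sizes followed the same course. The median called rise was 0.27 in log2 in the dimmest class, 0.34 in the third and 0.26 in the brightest. The median called fall was -0.28, -0.38 and -0.30 in the same classes. Of the 133 rises of at least 2-fold, 1 lay in the dimmest class, 21 in the second, 50 in the third, 48 in the fourth and 13 in the brightest. Of the 180 such falls the classes held 1, 24, 74, 52 and 29. Rises made up between 53.3% and 57.8% of the calls in every class. This holds for all calls and not for the large ones. At 2-fold the brightest class held 13 rises and 29 falls, against 48 and 52 in the fourth. The replicate spread also varied with signal: the SD between arrays was 0.0819 in the dimmest and 0.0443 in the brightest class for the tamoxifen arrays, and 0.0906 and 0.0776 for the untreated arrays. The differences are on a scale with an offset, which understates changes of dim probes. Of the 5882 tested probes in the dimmest class, 2426 were well above background on all 4 arrays. The part of the spread, the offset and the background flag in the share and size of calls per class was not tested.

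**Figure D1:**
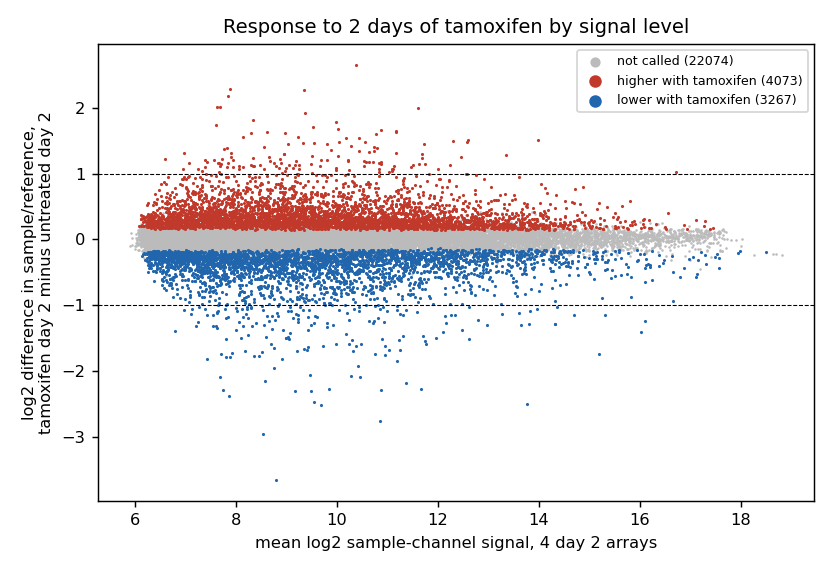
Each point is 1 of the 29414 tested probes, placed by its mean log2 sample-channel signal over the 4 day 2 arrays (horizontal) and its log2 difference, tamoxifen minus untreated (vertical); red and blue points are the 4073 higher and 3267 lower probes, grey ones were not called, and dashed lines mark 2-fold. The points fan out at intermediate signal and narrow toward background, where 1 rise and 1 fall of the dimmest class reached 2-fold. The scale holds an offset, which understates changes of dim probes.

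The reference RNA gives the difference between the 2 slides in the Cy5 channel, where the RNA did not differ. A slide difference confined to the Cy3 channel would not appear in it. In the reference channel 20 of 29414 probes were called between the same arrays (0.068%), 12 higher (0.0408%) and 8 lower (0.0272%) on the tamoxifen slide, and 0 reached 2-fold, while 2739 had an unadjusted limma p under 0.05. In the sample channel alone 6738 were called (22.9%), 3414 higher (11.6%) and 3324 lower (11.3%), with 118 rises (0.401%) and 196 falls (0.666%) of at least 2-fold. The central 95% of reference differences lay between -0.14 and 0.21, and that of sample differences between -0.59 and 0.51. These fits used each channel's log2 signal after quantile normalization between arrays. The reference count rose to 490 without the second untreated array and was 58 without the first, 48 without the first tamoxifen array and 54 without the second.

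At the probes called in the ratio, the median difference was larger in the sample channel than in the reference channel. These probes were chosen by the ratio of the channels, and a slide difference in the sample channel would look the same. Where the ratio rose, the median difference was 0.28 in the sample channel and -0.01 in the reference channel. Where it fell, the medians were -0.36 and -0.03. Of the 4073 rises 2917 were also called higher in the sample channel alone, and of the 3267 falls 2778 were called lower. Of the 20 probes called in the reference channel 14 were also called in the ratio (25% of all tested probes were), 11 of them with the same sign. Their ratio differences in log2 were 1.18 to 1.34 for the 3 rises and -0.38 to -2.95 for the 8 falls, so most were large changes. The origin of this overlap was not tested. The clearest among the largest changes was Z00046636-1, whose reference signal was lower by 0.52 in log2 on the tamoxifen slide (limma adjusted p = 0.00031) while its sample signal fell by 3.06. Its ratio gave a slightly smaller fall than its sample channel, with a log2 difference of -2.95. The ratio and the channels were normalized differently, and the source of this gap was not tested. The widest reference difference among the 20 was 0.99 at Z00057047-1, whose ratio differed by 0.11 and was not called.

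**Figure D2:**
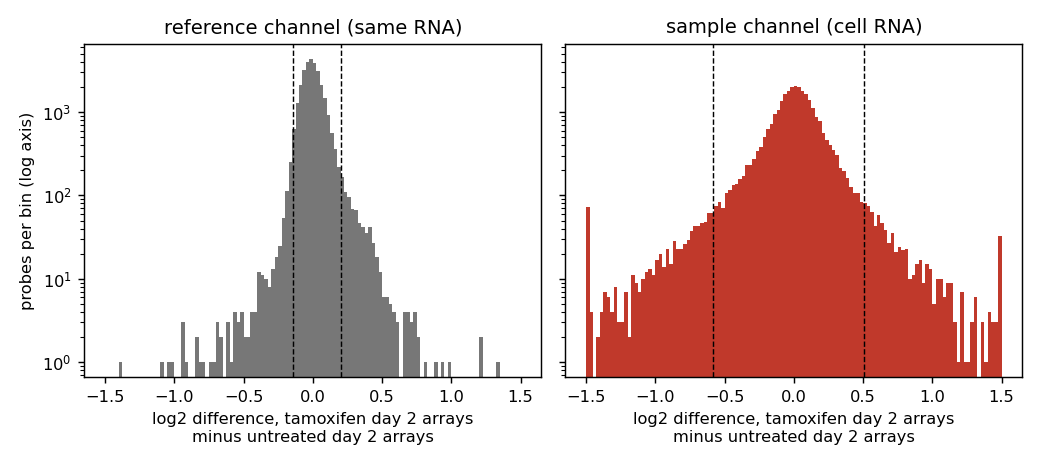
Histograms of the log2 difference between the tamoxifen and untreated day 2 arrays for the 29414 tested probes, on the left in the reference channel and on the right in the sample channel, with the number of probes per bin on a log axis; values beyond the ends are stacked in the end bins and dashed lines enclose the central 95%. That range runs from -0.14 to 0.21 for the reference and from -0.59 to 0.51 for the sample.

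Among probes well above background on all 4 arrays, the largest rise on the scale used here was that of Z00015795-1. Its level was -2.11 and -2.18 on the untreated arrays and 0.50 and 0.51 on the tamoxifen arrays, a 6.29-fold rise (log2 2.65, SE 0.09, limma adjusted p = 1.6e-12). The mean sample signal went from 532.1 to 3313, so it passed from far below the reference pool to somewhat above it. The overlapping probes Z00045886-1 and Z00024130-1 rose 4.88-fold and 4.04-fold. The first was at 0.32 and 0.39 in untreated cells and at 2.69 and 2.59 with tamoxifen, and the second at 0.39 and 0.35, then 2.45 and 2.33. Their sequences differ beyond the shared run, and whether they detect the same transcript was not tested.

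Z00033292-1 was at -2.61 and -2.51 without tamoxifen and at -0.30 and -0.28 with it, 4.81-fold higher (log2 2.27, SE 0.098, limma adjusted p = 1.6e-11). Z00060357-1 rose 4.54-fold, from 0.02 and 0.09 to 2.30 and 2.17. Z00023510-1 was at -0.80 on both untreated arrays and at 1.24 and 1.17 with tamoxifen, 4.02-fold higher. The next in size were Z00037943-1 (4.01-fold) and Z00002681-1 (3.78-fold). The order depends on the processing. With the scanner's processed signals Z00015795-1 rose by 2.80 in log2. Z00023510-1 (3.69), Z00060357-1 (3.10), Z00045886-1 (3.06) and Z00024130-1 (2.86) then rose more. Their mean sample signals in untreated cells were dim, at 104 to 115, against 532 for Z00015795-1. In each of the 8 largest rises the replicate arrays lay close together and far from the other group. The rule that chose these probes required called differences and groups that do not overlap. Their reference signal differed by -0.06 to 0.16 in log2.

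The largest fall was that of Z00010943-1, from 1.57 and 1.01 in untreated cells to -2.35 and -2.38 with tamoxifen. The untreated arrays differed from each other more than for any of the other 15 probes in the plot of values by array, yet the 12.6-fold difference (log2 -3.65, SE 0.14, limma adjusted p = 2.6e-12) was far larger. The processed signals, which have no offset, gave it a log2 difference of -5.09. Z00046636-1 was at 3.18 and 3.09 without tamoxifen and at 0.16 and 0.21 with it, 7.75-fold lower (log2 -2.95, SE 0.059, limma adjusted p = 2.1e-15), from a sample signal of 1158 to 121.2. Among these 16 probes it moved from the highest level over the reference to near equality with it.

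Z00027744-1 fell 6.74-fold, from 1.24 and 1.17 to -1.55 and -1.54 (log2 -2.75, SE 0.07, limma adjusted p = 6.3e-14). The overlapping probes Z00074574-1 and Z00002490-1 fell 5.73-fold and 5.52-fold. Both were at 1.41 to 1.44 on the untreated arrays and at -1.04 to -1.12 on the tamoxifen arrays, so that their values nearly coincide. Z00041077-1 was already below the reference in untreated cells, at -1.41 and -1.43, and went to -3.68 and -3.77 (4.95-fold). Z00004852-1 fell 5.64-fold and Z00075678-1 4.91-fold.

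**Figure D3:**
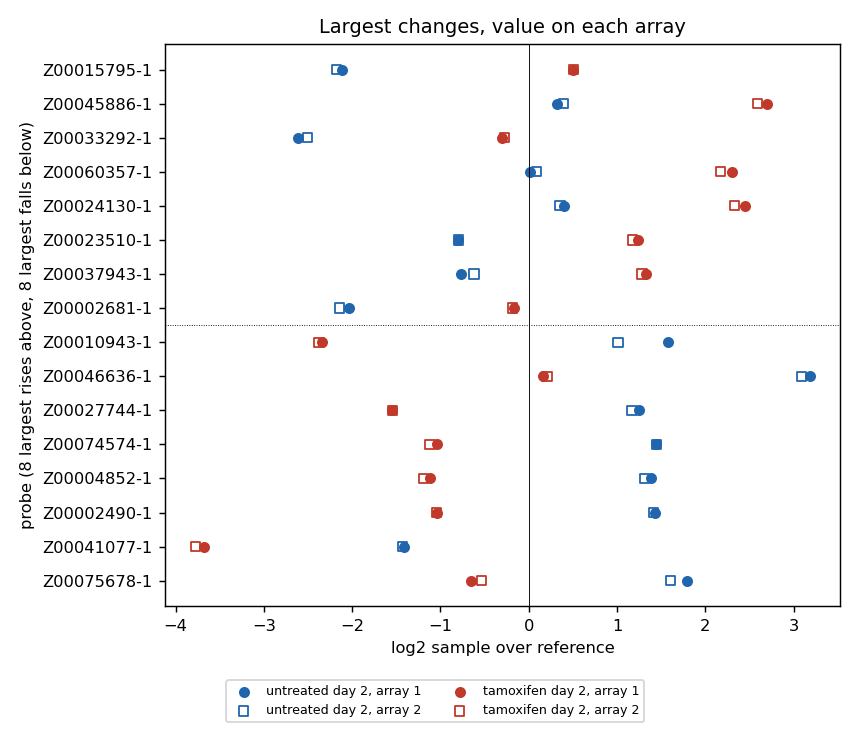
Log2 sample over reference (horizontal) on each of the 4 arrays for the 8 largest rises (upper block) and 8 largest falls (lower block); blue marks are untreated and red marks tamoxifen arrays of day 2, circles the first and squares the second array. The groups are separate at all 16 probes by the rule that chose them. The widest gap between replicates is that of Z00010943-1 in untreated cells (1.57 and 1.01).

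Bright probes moved too. In the brightest class the largest rises were those of Z00070436-1, from -0.34 and -0.58 to 0.99 and 1.12 (2.86-fold), Z00025906-1 (2.84-fold) and Z00075537-1 (2.81-fold). For Z00070436-1 the mean sample signal went from 9135 to 28583. The largest falls there were those of Z00004852-1, from a signal of 32155 to 5969, Z00005948-1, 3.33-fold lower, from -0.61 and -0.66 to -2.34 and -2.41, and Z00074551-1 (3.01-fold). These changes therefore concern transcripts with strong signal in these cells, not only dim ones. No probe was saturated in the sample channel of the 4 arrays.

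Across the array, probes that share sequence could be set side by side. Of 814 pairs of tested probes that share at least 30 bases on the same strand, 336 had at least 1 called member. In 258 both were called, while 25% of all tested probes were called. All 258 had the same sign, and the median gap between the members of a pair was 0.04 in log2 over the 814 pairs. In 32 pairs the probes lay on opposite strands, and 2 of these had both members called, with the same sign. Pairs of this kind share sequence and arrays and are not independent, so their like signs are a description. Whether their probes detect the same transcript was not tested.

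The called probes differed from the rest in base composition. The median GC content was 43.3% for rises, 45% for falls and 45% for probes not called, and 40% for the rises of at least 2-fold. The share called was 28.6% at up to 35% GC, 30.1% at 35 to 40% and 13.4% above 55%. Rises made up 62.9% of the calls at up to 35% GC and 44.4% above 55%. The median reference difference stayed between -0.01 and 0.00 in all 6 GC classes. The letters AATAAA, the usual polyadenylation signal, stood in 8.94% of the higher, 9.27% of the lower and 6.98% of the uncalled probes, against 7.503% of all tested; their reverse complement TTTATT stood in 3.14%, 3.49% and 2.99%. The part of base composition in the calls was not tested.

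A few probes could be placed on genes, by an exact match of their sequence to RefSeq windows of GRCm38.p6. These run from 250 bases before to 50 after each gene's start. A probe on the gene's strand that runs past the window's end was taken if at least its first 30 bases matched. Its bases beyond the window were not compared. Of the 42006 probes 382 matched and 255 of these were tested, of which 20 were higher and 12 lower (12.5%, against 25% of all tested probes). On the gene's own strand and with 1 gene symbol there were 141 tested probes, 13 higher and 2 lower (10.6%, against 25% of all tested probes). Probes designed at the starts of genes are a small part of the array, and the median of these 141 was 0.01, near that of all tested probes. A match places the letters of the probe and does not show which transcript it detected.

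The largest of these rises was at Z00060294-1, which lies before the start of the predicted gene Gm21936 (chr12:87795362-87795421). Its level was -1.52 and -1.45 in untreated cells and -0.74 and -0.70 with tamoxifen, 1.71-fold higher (limma adjusted p = 9.7e-08).
Z00060294-1: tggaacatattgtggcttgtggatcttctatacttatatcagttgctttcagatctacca
Z00032980-1 matched H4c3, which encodes the core histone H4 (chr13:23698409-23698446 for the 38 bases within the window), and rose from -0.05 and -0.25 to 0.35 and 0.26 (1.37-fold, limma adjusted p = 0.00014). Z00064795-1 matched H2bc11, which encodes a core histone H2B (chr13:22043200-22043247 for 48 bases), and rose 1.35-fold, from -0.47 and -0.71 to -0.14 and -0.17. Histone genes have near-identical copies, so the source of these signals is uncertain.

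Probes Z00075310-1 and Z00032009-1 lie at the start of Rpl38, a protein of the large ribosomal subunit (chr11:114668526-114668585 and chr11:114668538-114668597, on the plus strand), and overlap each other. They rose by 0.41 and 0.32 in log2, the first from 0.95 and 0.85 to 1.29 and 1.34 (limma adjusted p = 3.7e-05). Z00072354-1, at the start of Ppp2r3c, a regulatory subunit of a protein phosphatase, rose by 0.27 in log2 (limma adjusted p = 0.018). The remaining called rises matched Tapbp, Pdia2, Gm2427, Slc39a5, Leng1, Pgpep1 and Crxos. Their sizes are not given here, so the rises described are examples. The 2 falls were as follows. Z00056482-1, before the start of Wdr6 (chr9:108578848-108578907), went from 0.94 and 0.93 to 0.36 and 0.37, 1.49-fold lower (limma adjusted p = 0.00013), and Z00032127-1, at Gm14393, fell 1.31-fold. The probe for Wdr6 lies outside the annotated gene body, so the name refers to the window it matched.

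Most of the large changes, and a smaller share of all called ones, were also called after 1 day. Tamoxifen and untreated cells of day 1 lay on slides 2 and 1, so no array enters both comparisons, but slide 2 enters them with opposite sign. Of the 133 probes at least 2-fold higher on day 2, 130 were called higher on day 1 (9.34% of all tested probes were), 133 had the same sign and 42 had reached 2-fold (0.194% of all). Of the 180 at least 2-fold lower, 180 were called lower on day 1 (background 9.39%) and 70 had reached 2-fold (0.275% of all). The median difference of the 133 was 0.81 on day 1 and 1.2 on day 2, and that of the 180 was -0.88 and -1.29. Over all called probes, 1722 of the 4073 rises were called higher on day 1 and 12 lower, and 1846 of the 3267 falls were called lower and 7 higher. All these sets were chosen by their day 2 values, which favours a day 2 effect larger than that of day 1.

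The day 2 effect minus the day 1 effect was called at 697 of all tested probes (2.37%, with 1.36% higher and 1.01% lower). It was called at 74 of the 133, of which 73 had the larger rise on day 2, and at 96 of the 180, all 96 with the larger fall on day 2. Because the day 2 values chose these probes, the counts are a description and nothing is read from them against the share of all probes. Slides 1, 2 and 3 enter this difference, and slide and day cannot be told apart in it. Set beside these, tamoxifen cells of day 1 minus untreated cells of day 2, which share slide 2, differed by a median of 0.55 at the 133 and -0.96 at the 180. The comparison within slide 2 shares the untreated arrays with the day 2 comparison and mixes treatment with 1 day of culture. For all 16 of the largest changes it was called and had the sign of the day 2 difference (19.3% of all tested probes were called higher and 20.5% lower in it).

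The levels of both sets in every group are given next, as a description; the untreated and tamoxifen arrays of day 2 chose the sets. In untreated day 2 cells 47 of the 133 were above the reference on both arrays, and 131 of the 180 were, against 13389 of all 29414 tested probes. The 133 had a median level of -0.58 on day 0, -0.60 in untreated cells of day 1 and -0.46 in those of day 2. They stood at 0.14 after 1 day of tamoxifen, 0.80 after 2 days, 1.29 on day 3 and 1.11 on day 4. With tamoxifen on day 1 alone they were at 0.80 on day 2, 0.95 on day 3 and 0.71 on day 4. The 180 were at 0.72, 0.78 and 0.70 without tamoxifen, at -0.14, -0.76, -0.89 and -1.13 on days 1 to 4 with it, and at -0.69, -0.60 and -0.42 on days 2 to 4 after withdrawal. In continued tamoxifen all 133 were above and all 180 below their day 0 level on days 3 and 4. After withdrawal 130 and 156 still were on day 4. The groups set side by side here span all 5 slides.

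Single probes took different courses after day 2. Z00015795-1 was at -2.64 ± 0.035 (SD, n = 2) on day 0, -1.16 ± 0.14 after 1 day of tamoxifen and 0.51 ± 0.0060 after 2, and then stayed near that level, at 0.67 ± 0.0063 and 0.70 ± 0.12. Its day 2 effect exceeded its day 1 effect by 1.51 in log2. Z00023510-1 had nearly reached its day 2 level on day 1 (0.99 and 1.21) and was at 0.87 ± 0.28 on day 4. By contrast Z00045886-1 went on from 1.34 and 2.64 to 4.03 and 4.37, Z00060357-1 from 1.03 and 2.23 to 3.61 and 4.21, and Z00033292-1 from -1.96 and -0.29 to 0.14 and 0.78. In untreated cells Z00045886-1 was lower on day 1 (0.06) and day 2 (0.35) than on day 0 (1.06). On untreated day 2 Z00060357-1 (0.05, against 0.81 on day 0) and Z00033292-1 (-2.56, against -2.19) were lower as well. Z00015795-1 was higher (-2.15, against -2.64). Day 0 lay on slide 1 and untreated day 2 on slide 2, so a change in culture and one between slides cannot be told apart.

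Among the falls, Z00027744-1 went on downward in tamoxifen from 0.06 and -1.55 to -2.91 and -3.69. Z00010943-1 stayed at its day 2 level (-2.36, then -2.33 and -2.58), and so did Z00041077-1 (-3.73, then -3.81 and -3.79). Z00046636-1 was at 2.87 on day 0, 1.52 after 1 day of tamoxifen, 0.18 after 2 days and -0.37 on day 4. In untreated cells of day 1 this probe stood at 3.55 and Z00010943-1 at 2.34 (0.84 on day 0), above their day 0 levels.

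**Figure D4:**
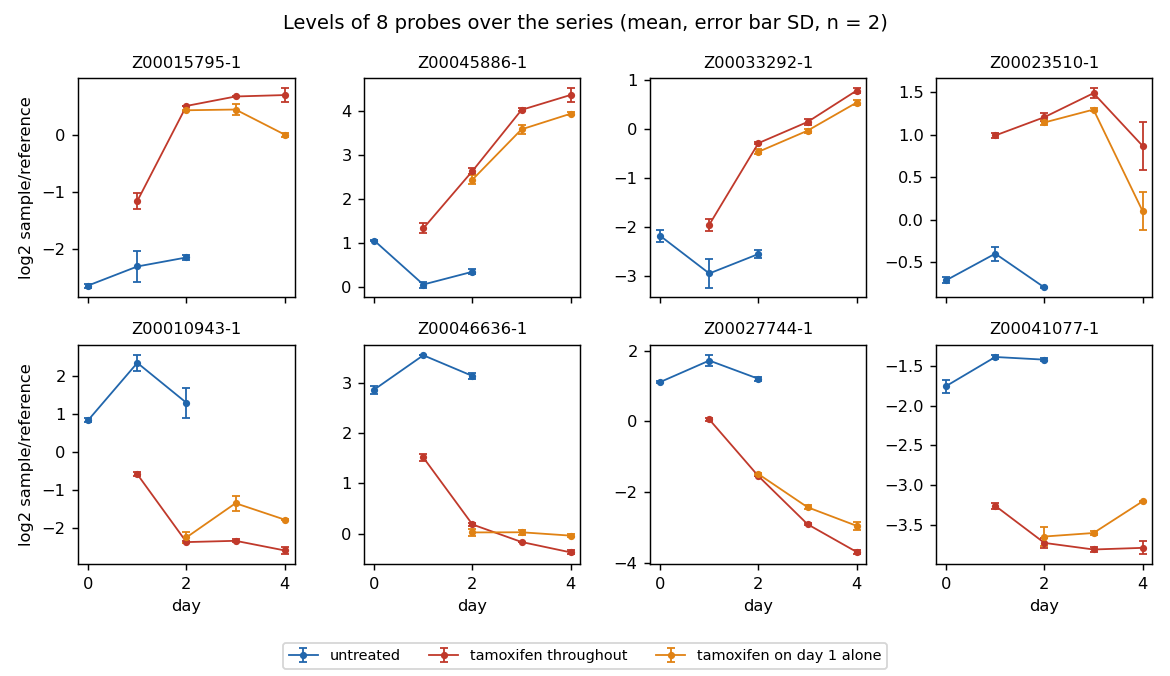
Mean log2 sample over reference against day for 4 of the largest rises (top) and 4 of the largest falls (bottom), with error bars for the SD of 2 arrays; blue is untreated, red tamoxifen throughout and orange tamoxifen on day 1 alone. Z00045886-1 climbs to 4.37 and Z00027744-1 sinks to -3.69 by day 4, while in continued tamoxifen Z00015795-1 and Z00041077-1 stay near their day 2 levels of 0.51 and -3.73; after withdrawal they stand at 0.0045 and -3.20 on day 4.

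The scanner software marks a spot as well above background when its signal exceeds the local background by a set margin of its noise. In the sample channel this flag was set on all 4 arrays for 25899 of the 42006 probes and on no array for 13051. A further 144 were flagged on both tamoxifen arrays and on neither untreated array (0.343%), and 396 on both untreated arrays and on neither tamoxifen array (0.943%). The remaining 2516 were flagged on 1 array of a group. Within a group the replicate arrays differed in the flag at 1454 (untreated) and 1462 (tamoxifen) probes, more than crossed between the groups in either direction. The count that crossed upward was 218 to 493, and downward 531 to 911, when 1 of the 4 arrays was left out, as fewer arrays then had to meet the rule.

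Most crossings were small steps at the edge of detection. The 144 had a median sample signal of 79.7 in untreated and 93.4 in tamoxifen cells, and none of them exceeded 139.7. For the 396 the medians were 89.8 and 81.9, with 449.9 as the highest. A probe below background has only a bound there, so its fold is given as at least the bright group's mean over the higher of the dim probe's own signal and the lowest signal well above background on each array. Among the 144 this bound was above 1 for all, at least 1.5-fold for 6 and at least 2-fold for 0, with a median of 1.15. Among the 396 it was above 1 for 369, at least 1.5-fold for 13 and at least 2-fold for 3, with a median of 1.09. In the fit 74 of the 144 were called higher (51.4%), and 117 of the 396 were called lower (29.5%), so many crossings came without a called difference. These shares are not comparable with the background of 25%, because the flag and the ratio come from the same signals.

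Z00030262-1 had the highest bound among those that crossed upward, at least 1.92-fold. It was at -0.11 and -0.07 without tamoxifen and at 1.1 and 1.17 with it (log2 1.22, SE 0.12, limma adjusted p = 3.2e-07). Its flag was set on both arrays of every other tamoxifen-treated group, withdrawn or not. It was also set on 1 array of day 0 and on 1 array of untreated day 1, so it was not absent without tamoxifen. Z00035560-1 (at least 1.71-fold) was at 0.16 and 0.07, then 1.02 and 0.90. It was flagged on no array of day 0, of untreated cells or of tamoxifen cells of day 1, and on both arrays of every group from day 2 of treatment on, reaching 2.12 in continued tamoxifen on day 4. Both day 1 groups were below the flag, so no difference is given for day 1. Z00026139-1 (at least 1.82-fold) was flagged on both arrays of every group but untreated day 2, day 0 included, so untreated day 2 was the exception among the groups. Z00025121-1 (at least 1.65-fold) was flagged on no array of untreated cells or day 0.

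Z00020928-1 had the largest bound of all, at least 4.42-fold lower with tamoxifen. It was at 0.43 and 0.44 in untreated cells and at -1.84 and -1.87 with tamoxifen, where its spot was not well above background (log2 -2.29, limma adjusted p = 2.6e-11). Z00057626-1 was at least 3.45-fold lower (0.84 and 0.59, then -1.13 and -1.08). Z00068415-1, the probe built of a repeated stretch, was at least 2.28-fold lower (1.61 and 1.28, then 0.14 and -0.04). Z00058533-1 was at least 1.79-fold lower, and its day 1 difference of -0.13 was not called (limma adjusted p = 0.17). All 4 were flagged on both arrays of day 0 and of untreated day 1, and on neither array of withdrawn day 2 cells. On the tamoxifen arrays of day 1, on slide 2, all 4 were flagged on both arrays, although Z00020928-1 stood at -1.66 and Z00057626-1 at -0.95 there. They were flagged again on both arrays of withdrawn cells of day 4, and Z00020928-1 and Z00057626-1 also on both arrays of continued tamoxifen of day 4, where their ratio stayed low (-1.61 and -0.97).

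The crossing probes were also followed through the other groups. Of the 144, 113 were flagged on both arrays of withdrawn day 2 cells, which shared slide 3 with the tamoxifen arrays. On day 3 it was 117 in continued tamoxifen and 101 after withdrawal, and on day 4 104 and 89. On day 0 it was 16, in untreated cells of day 1 30 and after 1 day of tamoxifen 42. Of the 396, 121 were flagged on both arrays of withdrawn day 2 cells and 89 on both arrays of tamoxifen cells of day 1, on the slide of the untreated day 2 arrays. On day 3 it was 152 in continued tamoxifen and 100 after withdrawal, and on day 4 168 and 228. On day 0 it was 153 and in untreated cells of day 1 222, so that many of the 396 missed the flag without tamoxifen too. Within slide 3, continued tamoxifen against withdrawn cells of day 2, 19 probes crossed upward and 354 downward. Between tamoxifen and untreated cells of day 1 it was 55 and 544. The first of the tamoxifen day 2 arrays had 26656 flagged probes, the lowest count of the 4, and the part of its detection limit in the downward crossings was not tested.

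**Figure D5:**
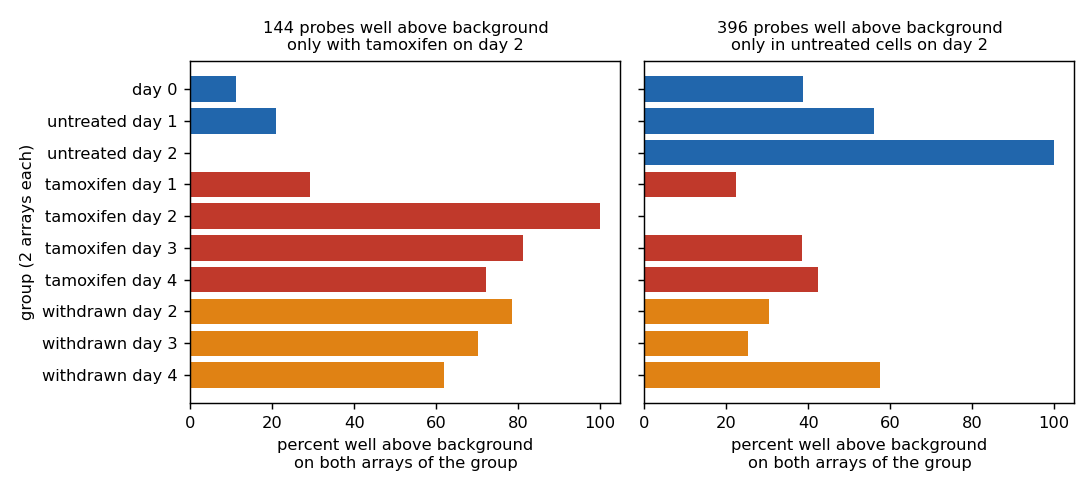
Percent of probes well above background on both arrays, for each of the 10 groups, among the 144 probes that were so only with tamoxifen on day 2 (left) and the 396 that were so only in untreated cells on day 2 (right); blue bars are untreated, red continued and orange withdrawn tamoxifen groups. The groups that define each set stand at 100 and 0 by construction, and the left set is flagged far more often in the tamoxifen groups after day 1 (89 to 117 of 144) than on day 0 (16).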

How the data were processed

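Per the file headers, version 9.5.1.1 of Agilent Feature Extraction made the deposited intensity values of the sample and reference channels. The log10 values of the deposited series matrix, whose centring and normalization are not given in the sources used here, served as an alternative, with 18098 of the tested probes. The build and gene names of the probes are not given in the sources used here.

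Mean signals were corrected with limma 3.58.1 in R 4.3.3 (normexp, offset 50; local backgrounds over 10 times the channel's median were replaced by that median) and normalized by loess within arrays, with control spots at weight 0. Spots flagged as non-uniform outliers were left out (91 probe values). The test took the 29414 of 42006 probes that passed the background flag in all arrays of 1 group or more. lmFit and eBayes were fitted to group means over all 20 arrays (10 residual degrees of freedom), and a call is a Benjamini-Hochberg adjusted p under 0.05. Folds are on the scale with the offset, which understates changes of dim probes. Sample signals by channel follow loess and Aquantile and, with no dye swap, are open to dye bias.

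Named probes were the 8 largest rises and 8 largest falls among called probes above background on all 4 arrays and with groups that do not overlap, the 4 largest bounds in each direction of crossing the flag, and the 3 largest rises and falls of the brightest class. The comparison, the rules and the lists were chosen with earlier results of these data known. The gene lists could not be applied; placing probes in RefSeq windows was chosen after the files were seen. The fit was tested on simulated data. Replicate numbers did not pair the arrays: the deviations of replicates correlated at -0.29 to 0.28 over 45 pairs of groups.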

Additional observations from a re-analysis of the deposited data

Results flagged for a closer look

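For 21 of the 29 named probes the day 2 effect differed from the day 1 effect, tested as the difference itself (limma, adjusted p under 0.05). Of all tested probes 2.37% were called in it. The named probes were chosen by their day 2 values, which favours a larger effect on day 2, so the number is a description. Slides 1 to 3 enter this difference, and slide and day cannot be told apart in it. The untreated groups of both days enter it too, so a change in untreated cells can be part of a value. Values are day 2 effect minus day 1 effect in log2.

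Among the largest rises the difference was 1.51 for Z00015795-1, 1.27 for Z00033292-1, 1.01 for Z00045886-1, 0.96 for Z00060357-1, 0.86 for Z00002681-1, 0.82 for Z00024130-1 and 0.61 for Z00023510-1. Among the largest falls it was -1.09 for Z00027744-1, -1.01 for Z00074574-1, -0.99 for Z00002490-1, -0.96 for Z00004852-1, -0.92 for Z00046636-1 and -0.43 for Z00041077-1.

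Of the probes that crossed the background flag, Z00035560-1 differed by 0.88, Z00030262-1 by 0.85 and Z00025121-1 by 0.58, all upward, and Z00058533-1 by -0.76 and Z00068415-1 by -0.55, both downward. At least 1 day 2 group of these 5 probes was not well above background, and for Z00035560-1 both day 1 groups were not either, so these 5 values are differences of measured signals near background and not exact sizes. Among bright probes the difference was 0.64 for Z00025906-1, -0.93 for Z00005948-1 and -0.41 for Z00074551-1.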

How the results depend on the processing

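The 29 named probes gave 419 values under the alternatives run, and all of these kept their direction and their side of the threshold. The 7340 called probes (4073 higher, 3267 lower) became 3696 (1983 and 1713) with local backgrounds as given, and 1704 (837 and 867) when tested against a 1.2-fold change, a stricter question. Leaving out 1 day 2 array gave 5058 to 5831 calls, 2699 to 3233 higher and 2342 to 2695 lower; the lone array left is assumed to vary like the other groups. The other alternatives run gave 5333 (series matrix) to 7401 (no background correction) calls. The replicate number as a block gave 7320 calls (4049 higher, 3271 lower) and changed the call of no named probe. Slide as a random block could not be fitted, since the group means already hold the slides.

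The reference channel's 20 calls became 48 to 490 without 1 array and 28 with the replicate block. The 144 probes above and 396 below background with tamoxifen became 158 and 436 under the scanner's other significance flag, and 218 to 493 and 531 to 911 without 1 array. With 10 signal classes in place of 5, 8.30% of the dimmest and 20.9% of the brightest class were called, against 9.93% and 25.1%. Probes not above background have only a bound, and 2 arrays a group limit all counts.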
